A study of Mus musculus with 7 samples.

Results

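Receptors for GABA and glutamate, the main inhibitory and excitatory transmitters of the hypothalamus, were read in the arcuate nucleus of 7 mice by 46 probes of an Illumina bead array. The probes were those whose symbol in the platform annotation starts with Gria, Grin, Grik, Grid or Grm and a number, or with Gabra, Gabrb, Gabrg, Gabrd, Gabre, Gabrq, Gabbr or Glra. They are 46 of 25697 probes on the array and carry 36 of 16593 gene symbols. The symbol rule also takes in the glycine receptor alpha subunits and Grid2ip, which encodes a scaffold protein and is no receptor subunit.

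The study compared 4 Dusp8-deficient mice with 3 control mice, all male C57BL/6J littermates of 40 weeks that had eaten a high-fat diet (45% of its energy from fat) for 30 weeks after a switch from chow at 8 to 10 weeks of age. No chow-fed group is part of the data, and the allele behind the Dusp8 deficiency is not given in the labels. Arrays keep the headings of the deposited table, where ko marks Dusp8-deficient mice (ko_108, ko_125, ko_148, ko_168) and wt marks controls (wt_136, wt_145, wt_177), and values below follow that order. Dusp8, a phosphatase that acts on Jnk and related kinases, read 104, 77, 94 and 98 signal units in Dusp8-deficient mice and 624, 558 and 540 in the controls, a log2 difference of -2.52 (SE 0.23, n = 4 and 3, limma adjusted p = 0.00963). The adjusted p was 0.0574 to 0.118 when ko_148, ko_168 or any control was left out and 0.141 without the filter on dim probes, while the difference stayed between -2.65 and -2.40.

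Ionotropic glutamate receptors are cation channels built from 4 subunits. AMPA receptors (Gria genes) carry fast excitation, NMDA receptors (Grin genes) admit calcium when glutamate and depolarisation coincide, and kainate receptors (Grik genes) act on both sides of the synapse. GABA-A receptors and glycine receptors are chloride channels built from 5 subunits, and the alpha subunit of a GABA-A receptor sets its kinetics and its response to benzodiazepines. Metabotropic glutamate receptors (Grm genes) and GABA-B receptors (Gabbr genes) signal through G proteins. In the arcuate nucleus, GABA released by Agrp neurons and glutamate inputs set the firing of the neurons that control feeding.

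Of the 46 receptor probes, 17 were above background (detection p below 0.05) in all 7 arrays, 11 in no array and 18 in some. All 9 AMPA and all 6 kainate probes were detected in at least 4 arrays, and 6 AMPA probes, 7 GABA-A probes but 0 kainate probes in all 7. By contrast 4 of 5 NMDA probes were detected in at most 1 array. They were Grin2a, whose signal ran from -3 to 8 units, Grin2b from -2 to 8, Grin2d from -7 to 1 and Grin3b from -5 to 5. The probes of Gabra4, Gabra6 and Gabrd, and those of Grm4, Grm6 and Grm8, were above background in no array, which shows only that these probes read nothing and not that the genes are silent. Glra1 was detected in 1 array and Glra4 in 2. Per array, 23 of the 46 probes were detected in wt_145 and 27 to 32 in the others, beside 12295 to 13976 of all 25697 probes per array. A probe was tested when it was detected in at least 3 of the 7 arrays, which left 31 receptor probes of 23 genes.

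**Figure D1:**
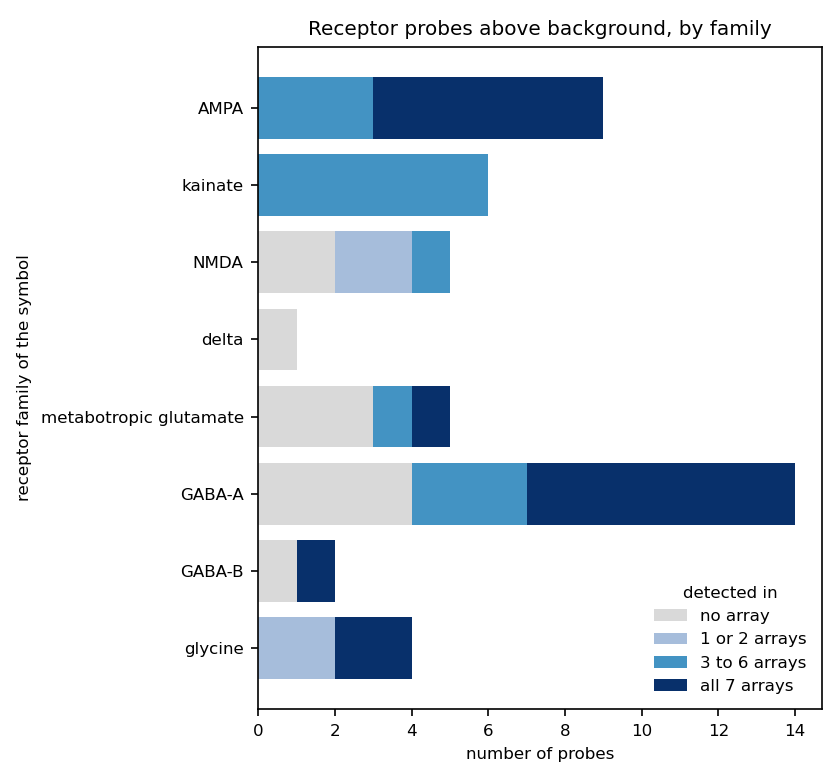
Number of receptor probes (horizontal axis) in each receptor family (vertical axis), coloured by the number of arrays in which the probe was above background. All 9 AMPA and 6 kainate probes were read in several arrays, while 4 of 5 NMDA probes were read in at most 1.

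No receptor gene passed the test between Dusp8-deficient and control mice. The test was limma on normalised log2 signal, two-sided, with Benjamini-Hochberg adjustment of p across the 14067 probes tested, and 0 of 31 receptor probes passed 0.05 where 0.00711% of all probes did. The smallest adjusted p among them was 0.996. At an unadjusted p below 0.05, 1 of 31 receptor probes was called, lower in the Dusp8-deficient arrays, where 4.81% of all probes were called, 2.5% as lower and 2.31% as higher. The groups did not overlap for 3 of the 31 probes, 2 of them higher in the Dusp8-deficient arrays and 1 lower, where 5.57% of all probes had no overlap (2.78% higher, 2.79% lower). A Grik1 probe among the 2 higher ones was detected in all 4 Dusp8-deficient arrays and in no control, so it passed the filter only through the group where it is high. With 1 gene read by its brightest tested probe, 10 receptor genes were higher and 13 lower, and the median log2 difference was -0.072, beside 4819 higher, 4901 lower and a median of -0.0021 over 9720 genes. The 95% interval of a receptor gene reached a median of 0.56 log2 units (1.47-fold) to each side, and 0.57 over all genes. A p that misses the threshold does not show that a gene is equal in both groups. In tissue, fewer cells of a type and less RNA per cell cannot be told apart.

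**Figure D2:**
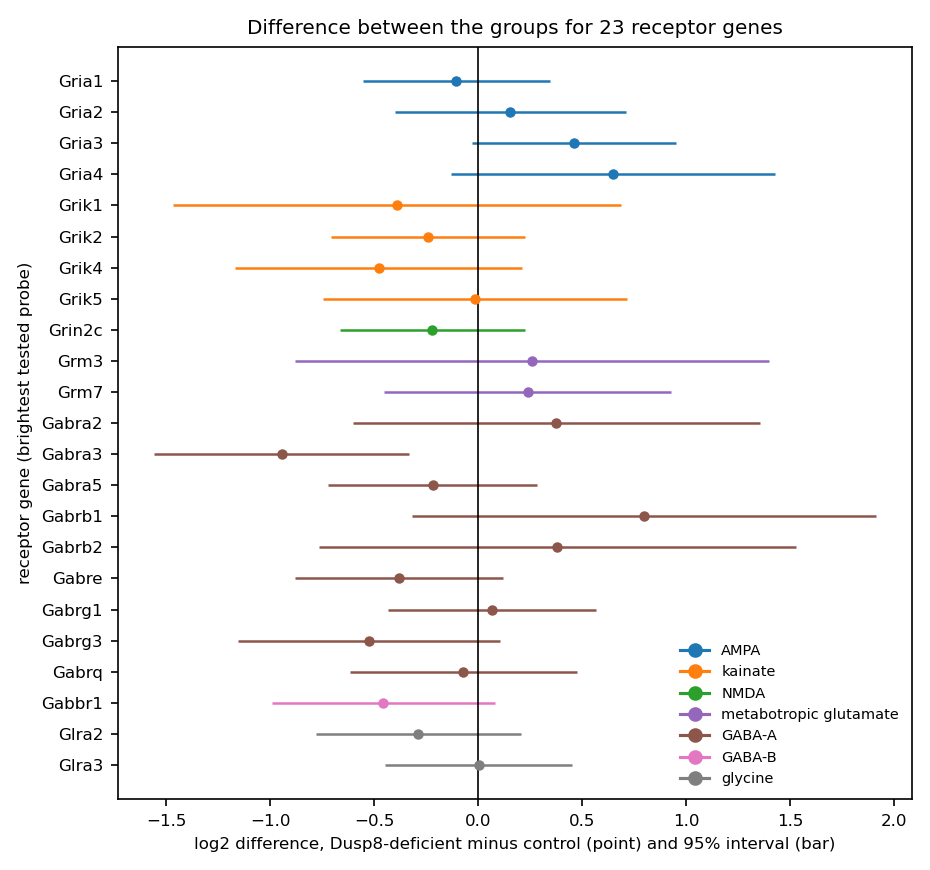
Log2 difference between Dusp8-deficient and control arrays (horizontal axis, points) with its 95% interval from limma (bars) for the 23 tested receptor genes, each read by its brightest tested probe (vertical axis) and coloured by family. The intervals of 22 genes include 0, and that of Gabra3 lies below it.

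Gabra3, which encodes the alpha3 subunit of GABA-A receptors, was the receptor gene of smallest p. In the deposited values it read 18, 60, 62 and 60 units in ko_108, ko_125, ko_148 and ko_168, and 113, 99 and 85 in the controls. Each Dusp8-deficient array lay below each control, and ko_108 lay far below the other 3. After normalisation it averaged 5.93 ± 0.50 (SD, n = 4) in Dusp8-deficient and 6.87 ± 0.066 (SD, n = 3) in control arrays on the log2 scale, and the log2 difference was -0.95 (SE 0.27, 95% interval -1.56 to -0.33), a factor of 1.93. It did not pass (limma unadjusted p = 0.00653, adjusted p = 0.996), and its exact permutation p of 0.0286 is the lowest possible with 35 ways to split the arrays. Without ko_108 the difference was -0.71, and it lay between -1.06 and -0.91 when any other array was left out. The summed signal of 13 tested arcuate neuron markers, 12 of which were lower in the Dusp8-deficient arrays, was low in ko_108 as well. That sum ran from 2428 to 5313 units over Dusp8-deficient mice and from 5066 to 5775 over controls, lowest in ko_108, and Agrp, Slc6a3, Prlr, Otp and Gsx1 of the list were not tested. Relative to their mean over all arrays, the 13 markers averaged -1.14 log2 units in ko_108. They averaged 0.015, 0.26 and 0.035 in ko_125, ko_148 and ko_168, and 0.24 to 0.32 in the controls. Their average thus lay far lower in ko_108 than in any other array. Sst, Tac2, Kiss1 and Pomc of the list had their lowest value in another array. Within the Dusp8-deficient group, Sst and Tac2 were highest in ko_108. The low average in ko_108 was not particular to arcuate markers. The averages of 4 tested pituitary markers and of 8 tested ependymal and tanycyte markers were also lowest in ko_108. The other marker lists did not have their lowest average there. In ko_125, ko_148 and ko_168 Gabra3 lay below every control, at 60 to 62 units. The arcuate average of ko_148 lay within the range of the controls, and those of ko_125 and ko_168 lay below it. The part of any of these markers in the Gabra3 result was not tested.

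Gabra3 (chrX:72432676-72656919 in GRCm38.p6) lies between Gabre, the epsilon subunit gene, and Gabrq, the theta subunit gene. Their promoters are shown to set the receptor gene of smallest p beside its neighbours. Each stretch runs from 250 bases before to 50 bases after a start given by RefSeq for GRCm38.p6, the one furthest upstream in the promoter table, which for Gabre and Gabrq is not the outer end of the annotated gene, 5′ to 3′, with each CG in capitals.
Gabre, chrX:72274672-72274971, minus strand: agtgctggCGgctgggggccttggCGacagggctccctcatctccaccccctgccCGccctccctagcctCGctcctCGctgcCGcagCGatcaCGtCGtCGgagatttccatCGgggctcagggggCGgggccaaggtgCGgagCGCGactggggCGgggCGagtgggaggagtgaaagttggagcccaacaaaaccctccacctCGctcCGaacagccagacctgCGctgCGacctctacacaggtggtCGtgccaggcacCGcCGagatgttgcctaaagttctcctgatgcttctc
Gabra3, chrX:72656870-72657169, minus strand: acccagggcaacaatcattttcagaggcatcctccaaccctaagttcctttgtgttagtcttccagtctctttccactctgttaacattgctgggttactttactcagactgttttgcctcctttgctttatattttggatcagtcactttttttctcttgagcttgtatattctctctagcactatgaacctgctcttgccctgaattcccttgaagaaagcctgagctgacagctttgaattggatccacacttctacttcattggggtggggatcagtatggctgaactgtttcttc
Gabrq, chrX:72824928-72825227, plus strand: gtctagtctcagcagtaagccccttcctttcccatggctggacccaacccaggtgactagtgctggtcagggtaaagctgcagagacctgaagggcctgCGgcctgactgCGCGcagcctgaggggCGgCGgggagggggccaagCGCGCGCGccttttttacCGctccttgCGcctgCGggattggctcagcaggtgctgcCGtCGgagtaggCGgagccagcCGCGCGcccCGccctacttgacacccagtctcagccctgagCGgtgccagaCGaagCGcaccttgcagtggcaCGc
The Gabra3 stretch holds 0 CG and 43% G and C, while Gabre holds 24 CG and Gabrq 23. Over the 20 tested receptor genes with an entry in the promoter table the number of CG ran from 0 to 42 with a median of 15. Over all 32851 promoters of the table it ran from 0 to 67 with a median of 7. At least 1 CG was held by 95% of the tested receptor promoters and by 94.6% of all. The letters TGANTCA, with any base at N, read the same on both strands and take in the narrower AP-1 site that Jun and Fos proteins bind. They occur in none of these 20 promoters, in 2 of the 28 receptor genes with an entry and in 7.81% of all promoters. A missing match says only that the letters are not in this window.

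Gabre itself had signals of 6, 14, 9 and 17 units in the Dusp8-deficient arrays and 23, 13 and 21 in the controls. The groups overlapped, and the log2 difference was -0.38 (SE 0.22). Gabrq was close to background, with 24 units in ko_125 and -3 to 8 in the other arrays, and detection p was below 0.05 in ko_125 and in 2 of the 3 controls. Its log2 difference was -0.072 (SE 0.24). Of the 5 tested receptor genes on the X chromosome, 4 were lower and 1 was higher, beside 182 lower and 178 higher among all 360 tested genes there.

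Of 4 neighbouring GABA-A genes on chromosome 5, Gabra4 was not above background, Gabrb1 and Gabra2 spread widely between arrays of both groups, and Gabrg1 spread less. Gabrb1, a beta subunit, had 94, 100, 58 and 10 units in the Dusp8-deficient arrays and 38, 7 and 33 in the controls. Gabra2, the alpha2 subunit, had 33, 60, 45 and 9 units against 13, 7 and 53. Both were low in ko_168 and wt_145, where Gabrb1 read 10 and 7 units and Gabra2 read 9 and 7. The groups overlapped, for Gabrb1 through ko_168 and for Gabra2 also through wt_177 at 53 units. The log2 differences were 0.80 (SE 0.50) for Gabrb1 and 0.38 (SE 0.44) for Gabra2. The neighbouring Gabrg1, a gamma subunit, did not show this dip, with 84, 83, 75 and 58 units against 94, 64 and 48 and a log2 difference of 0.068 (SE 0.22). Without wt_145 the Gabrb1 difference was 0.41 and that of Gabra2 0.050, while without wt_177 they were 1.01 and 0.91.

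On chromosome 7, Gabrg3, a gamma subunit, had 36, 30, 22 and 19 units in the Dusp8-deficient arrays and 27, 43 and 61 in the controls, a log2 difference of -0.52 (SE 0.28) with overlapping groups. Its neighbour Gabra5, the alpha5 subunit known for tonic inhibition, had 50, 58, 60 and 84 units against 72, 63 and 75 and read -0.22 (SE 0.22). Gabrb2 on chromosome 11, a beta subunit, had 267, 95, 42 and 86 units against 67, 57 and 92. The highest value by far was that of ko_108, and the log2 difference of 0.38 (SE 0.51) became -0.13 without it. A second Gabrb2 probe also had its highest value in ko_108, at 117 units against 48 to 110 elsewhere.

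Gabbr1, the ligand-binding subunit of GABA-B receptors, had 297, 263, 271 and 214 units in the Dusp8-deficient arrays and 322, 319 and 398 in the controls. On the deposited scale every Dusp8-deficient array was below every control, but after normalisation the groups overlapped, since ko_108 read 8.53 and the controls wt_136 and wt_145 read 8.34 and 8.42. The log2 difference was -0.46 (SE 0.24, 95% interval -0.99 to 0.08), and a second Gabbr1 probe was above background in no array. Both tested glycine receptor genes had overlapping groups. Glra2, the alpha2 subunit, had 203, 200, 164 and 161 units against 268, 215 and 173 and read -0.29 (SE 0.22), and Glra3, the alpha3 subunit, read 0.0017 (SE 0.20) with 20 to 38 units over all arrays.

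**Figure D3:**
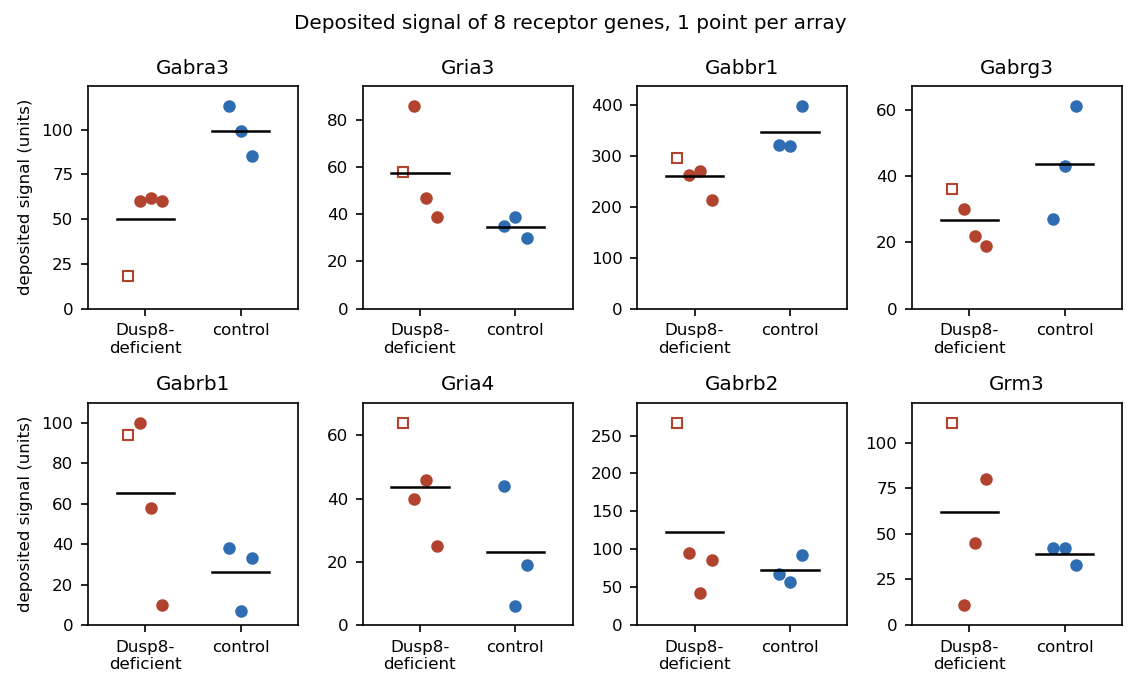
Deposited signal in units (vertical axes, each from 0) of 8 receptor genes in Dusp8-deficient arrays (red) and control arrays (blue), 1 point per array, with ko_108 as an open square and the group mean as a bar. Gabra3 is below the controls in all 4 Dusp8-deficient arrays, while the mean of Gabrb2 is raised by ko_108 at 267 units.

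The AMPA subunits were read by 9 probes, and 3 of 4 genes were higher in the Dusp8-deficient arrays on their brightest probe, without passing. Gria3 had 58, 86, 47 and 39 units in the Dusp8-deficient arrays and 35, 39 and 30 in the controls. Units tied at 39 between ko_168 and wt_145, and after normalisation the Dusp8-deficient arrays were all higher, at 5.88 to 6.46 against 5.62 to 5.79. The log2 difference was 0.46 (SE 0.22, 95% interval -0.029 to 0.95, exact permutation p = 0.0857, two-sided). Both other Gria3 probes also read higher, at 0.34 and 0.45, with overlapping groups. They were dimmer, at 3 to 53 and 3 to 36 units. The first was detected in 3 Dusp8-deficient arrays and 1 control, the second in 4 and 2. Each met the filter through the Dusp8-deficient arrays alone, the group where it is high. Gria4 had 64, 40, 46 and 25 units against 44, 6 and 19 and read 0.65 (SE 0.35), or 0.30 without wt_145. Gria2, the subunit whose RNA-edited form makes AMPA receptors nearly impermeable to calcium, had 158, 227, 172 and 123 units against 157, 108 and 169 and read 0.15 (SE 0.25), with 0.48 on a dimmer probe.

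The 3 probes of Gria1 did not read alike. The brightest had 46, 67, 46 and 50 units in the Dusp8-deficient arrays against 49, 69 and 45, and a log2 difference of -0.11 (SE 0.20). The other two had their lowest value in ko_108, at 18 and 19 units, and their highest in ko_125, at 90 and 100, with differences of 0.13 and 0.0002. Those 2 probes thus moved together between arrays in a way that the brightest did not.

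All 4 kainate genes read lower on their brightest tested probe, with signals near background and no call. Grik4 had 0, 9, 14 and 16 units in the Dusp8-deficient arrays and 24, 35 and 6 in the controls, a log2 difference of -0.48 (SE 0.31) that was -0.22 without wt_145 and -0.80 without wt_177. Grik2 read -0.24 (SE 0.21) with 4 to 15 units over all arrays, and Grik5, a subunit that needs a partner to form a channel, read -0.015 (SE 0.33) with -3 to 26 units. Grik1 was read by 3 probes that differ in sign. Its brightest had 5, 74, 13 and 7 units against 35, 54 and 6 and read -0.39 (SE 0.48), with ko_125 far above the other Dusp8-deficient arrays. This was -0.028 without wt_145, -0.79 without ko_125 and -0.85 without wt_177. A second read -0.12. The third, with 10, 14, 9 and 11 units against 1, 4 and 6, was not above background in any control. With control values taken as no lower than the lowest detected value, the Dusp8-deficient mean was 1.14-fold higher. That figure bounds the sample means only, and the limma interval of the log2 difference, -0.081 to 0.74, includes 0. The third probe passed the filter only through the Dusp8-deficient arrays, which favours this direction, so the test cannot decide it. It did not pass (limma adjusted p = 0.996).

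Of the NMDA genes Grin2c alone was tested, and it is named for that reason after its values were seen. It had 11, 13, 2 and 9 units in the Dusp8-deficient arrays and 14, 14 and 11 in the controls, a log2 difference of -0.22 (SE 0.20). Among metabotropic receptors, Grm3, found on both neurons and astrocytes, had 111, 11, 45 and 80 units against 42, 42 and 33. The controls lay close together while the Dusp8-deficient arrays ran from 11 to 111 units, and the log2 difference of 0.26 (SE 0.51) was -0.12 without ko_108 and 0.76 without ko_125. Grm7, a presynaptic receptor, had 30, 8, 26 and 5 units against 8, 11 and 12 and read 0.24 (SE 0.31), with 0.013 without ko_108 and 0.41 without ko_168.

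Receptor probes took their extreme values in ko_108 more than in any other array. Of the 31 tested probes, 10 had their highest and 9 their lowest value in ko_108, together 61.3%, where 38.4% of all tested probes had an extreme there. In the other arrays the share of receptor probes was 16.1% to 32.3%, beside 18.4% to 36.5% of all probes. The highest values in ko_108 included those of Gabrb1, both Gabrb2 probes, Gria4, Grm3 and Grm7, and the lowest included Gabra3, Gabre, Grik4, Grik5 and the 2 dimmer Gria1 probes. The same array held the highest summed signal of 15 tested oligodendrocyte and myelin markers. It ran from 3202 to 9173 units over Dusp8-deficient mice and from 2913 to 4110 over controls, and 14 of the 15 markers were higher in the Dusp8-deficient arrays. Astrocyte markers summed to 4756 to 6137 units against 4437 to 5130, with 8 of 13 higher and Gjb6 untested. Neuron markers summed to 8385 to 8940 against 8134 to 9909, with 10 of 20 tested markers higher. The part of these cell types in the receptor values was not tested. Without ko_108, 7 of 31 receptor probes had groups without overlap (Gabbr1, Gabra3, Gabrg3, Glra2, Gria3, Grik1 and Grin2c), beside 10.2% of all probes, and none passed in limma. Groups of fewer arrays separate more often by construction, and this count was 6 without ko_168 (10.5% of all probes), 6 without wt_136 (13.2%), 5 without wt_145 (11.9%) and 4 without each of ko_125, ko_148 and wt_177 (10.2%, 8.69% and 11.5%).

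**Figure D4:**
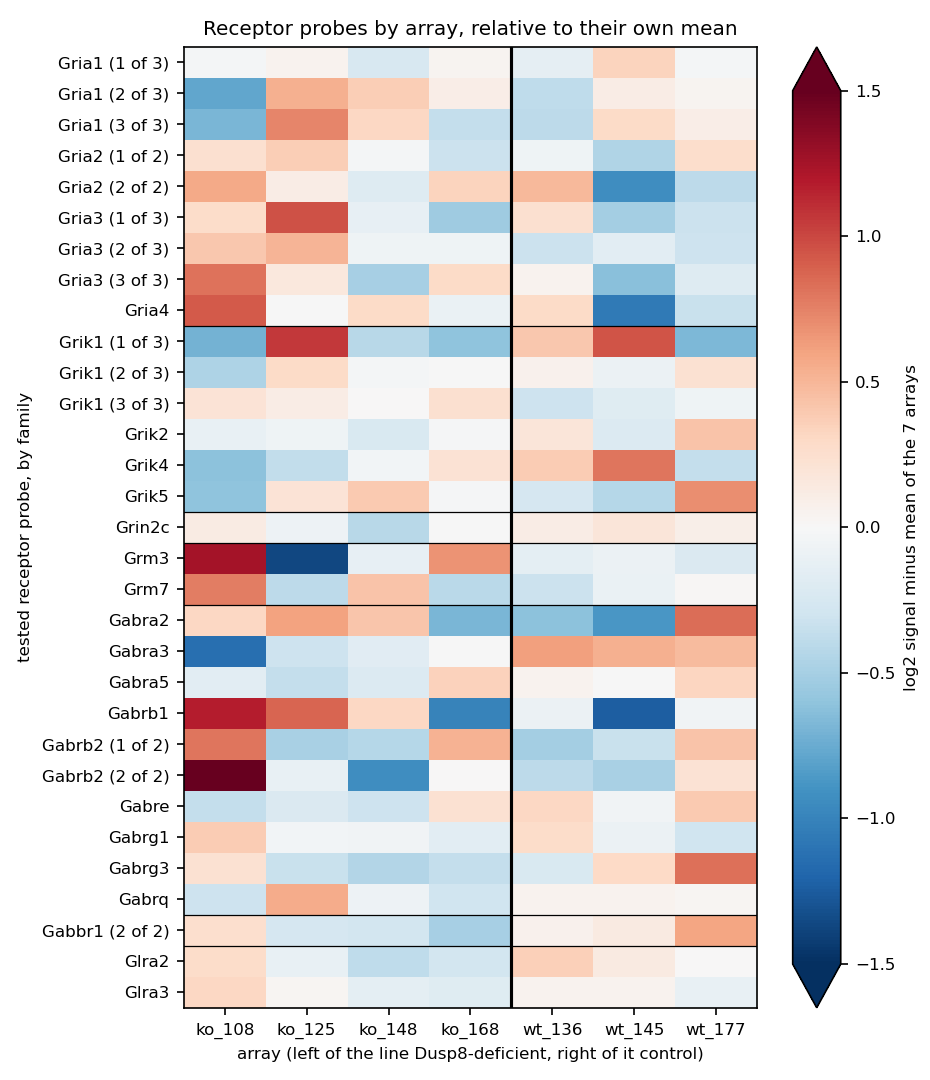
Log2 signal of each of the 31 tested receptor probes (rows, by family, several probes of a gene numbered in the order of their identifiers) in each array (columns), relative to the mean of the 7 arrays and coloured from low (blue) to high (red). Column ko_108 holds 10 of the highest and 9 of the lowest values, and Gabra3 is below its mean in ko_108 and above it in all 3 controls.

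Proteins that bind, anchor or clear transmitter around these receptors were read from lists written by role. Of 13 tested auxiliary subunits of AMPA and kainate receptors, 4 were higher, 9 lower and 0 passed, with a median log2 difference of -0.12. Shisa7, a membrane protein that associates with AMPA and GABA-A receptors, had 64, 47, 48 and 37 units in the Dusp8-deficient arrays and 12, 31 and 16 in the controls, all higher, and read 0.85 (SE 0.27, limma unadjusted p = 0.00978). Cacng5, a transmembrane AMPA receptor regulator, had 30, 129, 111 and 146 units against 218, 212 and 139 and read -0.98 (SE 0.37), or -0.63 without ko_108. After normalisation each Dusp8-deficient array lay below each control for Cacng5, and neither gene passed (adjusted p = 0.996). Of 18 tested genes of the excitatory postsynaptic scaffold, 3 were higher, 15 lower and 0 passed, with a median of -0.13. At an unadjusted p below 0.05 (limma), 0 of the 18 were called, where 4.81% of all probes were. Over all 9720 tested genes, 4819 were higher and 4901 lower, with a median of -0.0021. Dlg1, a PSD-95 relative, read -0.37 (SE 0.19), with each Dusp8-deficient array below each control. Sipa1l1 read -0.46 (SE 0.26) with overlapping groups. Of all tested probes, 5.57% had groups without overlap.

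On the inhibitory side no partner passed either. Of 16 tested genes for the inhibitory scaffold and GABA-A trafficking, 10 were higher and 6 lower, with a median of 0.049. Gabarapl1 read 0.33 (SE 0.27) and Gabarap, a trafficking protein, -0.30 (SE 0.22). Of 5 tested GABA-B auxiliary genes, 3 were higher and 2 lower, with Kctd12b at -0.26 (SE 0.20) and Kctd12 at 0.20 (SE 0.31), which was 0.0012 without ko_125 and 0.45 without ko_168. Glrb, the glycine receptor beta subunit that binds gephyrin, lies outside the symbol rule and had 55, 69, 54 and 55 units in the Dusp8-deficient arrays and 48, 35 and 27 in the controls. Each Dusp8-deficient array was above each control, with a log2 difference of 0.45 (SE 0.19, limma unadjusted p = 0.0419) that did not pass (adjusted p = 0.996).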

How the data were processed

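Total RNA of 7 arcuate nuclei was amplified, labelled with biotin and hybridised to bead arrays, per the labels' protocols. The authors deposited non-normalised intensities, per the file headers, and these are the values used here. They go below 0, so a background had been subtracted, by a method that no label or header names. Detection p-values were deposited next to each array's intensities, per the file headers. The authors' processed intensities, a separate deposited table, served only as an alternative. From the values they are linear, with a median of 21 over all columns together. Quantile normalisation and an added constant of unknown size were inferred and not examined column by column. Columns of the main table give the genotype and no replicate number.

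Intensities were corrected and quantile-normalised with neqc (offset 16) of limma 3.58.1 in R 4.3.3, put on the log2 scale and fitted by lmFit and eBayes as Dusp8-deficient against control over the 14067 probes with a detection p below 0.05 in at least 3 arrays. Of all probes, 23978 had 1 symbol and 1719 were unnamed here. The 36 receptor symbols matched RefSeq by Entrez ID. The brightest tested probe stood for a gene. Where no array of a group detected a probe, its level there is a bound, taken per array as the higher of its own value and the lowest detected value. The number of arrays limits the precision. The labels speak of biological replicates without litter, slide or day, so no batch could be examined. Some genes are not reported here.

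Members and lists were chosen with earlier results of these data known. Genes named were Dusp8, receptor subunits fixed by role, the 5 receptor genes of smallest p per direction, those without overlap or with probes of unlike sign, and 2 genes of smallest p per partner list. The fit was tested on simulated data. Alternatives changed the offset, background correction, normalisation, filter, variance model, array weights, threshold, detection limit and probe rule, used the processed values with and without a replicate block, or left out each array.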

Additional observations from a re-analysis of the deposited data

Results flagged for a closer look

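For 2 of the 31 tested receptor probes, Dixon's criterion, which singles out about 5% of groups by chance, marked 1 Dusp8-deficient array as distant from its group. The log2 signal of Gabrg3 was 5.83 in ko_108 and 5.16 to 5.27 in the other Dusp8-deficient arrays. That of the brightest Grik1 probe was 6.27 in ko_125 and 4.51 to 4.80 in the others. The 3 controls were too few to examine.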

How the results depend on the processing

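No receptor probe passed under any alternative run, also at an adjusted p below 0.1, and the smallest adjusted p of a receptor probe under any of them was 0.69 (limma with array weights). The median log2 difference of the receptor genes lay between -0.15 and -0.011 in all settings. Between 21 and 27 receptor probes per array were detected at a detection p below 0.01. With array weights Gabrg1 read -0.054, Glra3 -0.069 and Grik5 0.25, and Grik5 read 0.042 with median scaling and 0.031 with cyclic loess, all opposite in sign to the main values. The same-numbered samples of the processed table did not deviate together (correlations -0.059, 0.082 and -0.017 for replicates 1, 2 and 3). In that table, replicates 1 to 3 gave 6 receptor probes without overlap (19.4%), beside 9.89% of all probes. This count does not use the replicate block, and groups of fewer arrays separate more often by construction. Dusp8 read -2.60 there with adjusted p = 0.273 with the block and 0.0899 without it (limma), and -2.52 with adjusted p = 0.141 when dim probes were not filtered out. The block changed no receptor call. With 1 array left out, Dusp8 ran from -2.65 to -2.40 and lost its call without ko_148, ko_168, wt_136, wt_145 or wt_177 (adjusted p 0.0574 to 0.118). Over the same fits the count of receptor probes without overlap ran from 4 to 7, beside 8.69% to 13.2% of all probes. Gabrb2 ran from -0.13 to 0.74, Gabrg1 from -0.063 to 0.22, Gabrq from -0.25 to 0.017 and Glra3 from -0.0996 to 0.064. Gria1 ran from -0.20 to 0.033, Gria2 from -0.029 to 0.33, Grik5 from -0.23 to 0.34 and Grm3 from -0.12 to 0.76. The cause of these changes was not tested. Signals near background, as for the kainate genes, Gabrq and Grin2c, limit what can be seen.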

Other observations

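Of 11 tested transporters of glutamate, GABA, glycine and chloride, 7 read higher in Dusp8-deficient mice and 4 read lower, with a median log2 difference of 0.038, and 0 passed. Slc12a2, the chloride importer that raises intracellular chloride and so opposes GABA-A inhibition, had 1281, 1254, 1519 and 1454 units in the Dusp8-deficient arrays and 1210, 1098 and 951 in the controls. Each Dusp8-deficient array was above each control, with a log2 difference of 0.30 (SE 0.18, limma adjusted p = 0.996). Slc1a2, the main glutamate transporter of astrocytes, had 633, 663, 427 and 474 units against 392, 436 and 232 and read 0.59 (SE 0.29) with overlapping groups.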
